A study of Mus musculus with 8 samples.

Results

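Lysosomal enzymes and membrane proteins are represented here by 9 genes of the 55414 in the count table: the hydrolases Gaa and Hexa, the cathepsins Ctsb, Ctsd and Ctss, the precursors Psap and Grn, and the membrane glycoproteins Lamp1 and Lamp2. Each was found in the table by its symbol. The genes were selected on values of this genotype contrast, with its fold changes in these libraries already known, so their own differences between genotypes are given as a description, without a test. The data were counts per gene from 8 RNA-seq libraries of cells sorted as enteric neurons from the mouse colon, 4 of WT and 4 of Emb knockdown genotype, all from mice aged 4 weeks. Emb encodes embigin, a membrane glycoprotein that partners with monocarboxylate transporters. The cells of both genotypes were stained for CD24 and CD56 and sorted into lysis buffer, about 250 to a tube. The knockdown method, and whether it was limited to some cells, are details not given in the sources used here. Nor do the labels state that a tube held the cells of 1 mouse, so any p here reflects the spread between these libraries, which may be partly technical.

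Lysosomes are acidic organelles in which proteins, lipids, glycogen and complex sugars are broken down. Soluble hydrolases reach them largely through mannose 6-phosphate or sortilin receptors, many are matured there by proteolysis, and heavily glycosylated membrane proteins such as LAMP1 and LAMP2 line the inner face. In nerve cells, which do not divide, loss of a lysosomal hydrolase or its cofactor often leads to storage disease, and macrophages are known for especially high lysosomal gene expression. Many lysosomal genes are bound by the transcription factor TFEB and its relatives at an E-box, CACGTG, often with a T before and an A after it.

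Gaa, the member whose Emb knockdown libraries all lay above WT, and Lamp1, the member with most Emb knockdown libraries below WT, both carry this E-box upstream of their start, as does Ctsd. The stretches that hold it are shown for these genes because the motif is known from lysosomal promoters and did not enter the choice of the members. They are from RefSeq (GRCm38.p6), run 5′ to 3′ on the strand of the gene, and have the E-box in capitals:
Gaa, chr11:119267811-119267840, plus strand: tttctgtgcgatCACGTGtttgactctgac
Lamp1, chr8:13159088-13159160, plus strand: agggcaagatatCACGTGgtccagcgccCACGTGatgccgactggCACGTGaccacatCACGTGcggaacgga
Ctsd, chr7:142388055-142388077, minus strand: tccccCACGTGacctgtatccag
Ctsd, chr7:142387908-142387937, minus strand: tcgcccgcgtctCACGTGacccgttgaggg
The windows searched ran from 250 bases before to 50 bases after each annotated start. They were found for 8 of the 9 members, all but Ctsb, and gave 9 windows since Psap has 2 starts. CACGTG reads the same on both strands. It was present in 3 of the 9 windows, against 7.15% of the 32851 promoters of all genes and 7.84% of those of protein-coding genes. Lamp1 had 4 copies within 61 bases of its start, a number that only 8 of all promoters reached or passed. Ctsd had 2 copies, and the one nearer the start, which lies inside a GENCODE exon of Ctsd, was the longer form TCACGTGA, present in 0.974% of all promoters. In the wider lists of lysosomal genes described further on, 40 of 183 promoters (21.9%) held CACGTG and 21 (11.5%) held TCACGTGA. The letters CACGTG were not in the windows of Ctss, Hexa, Lamp2, Psap and Grn.

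**Figure D1:**
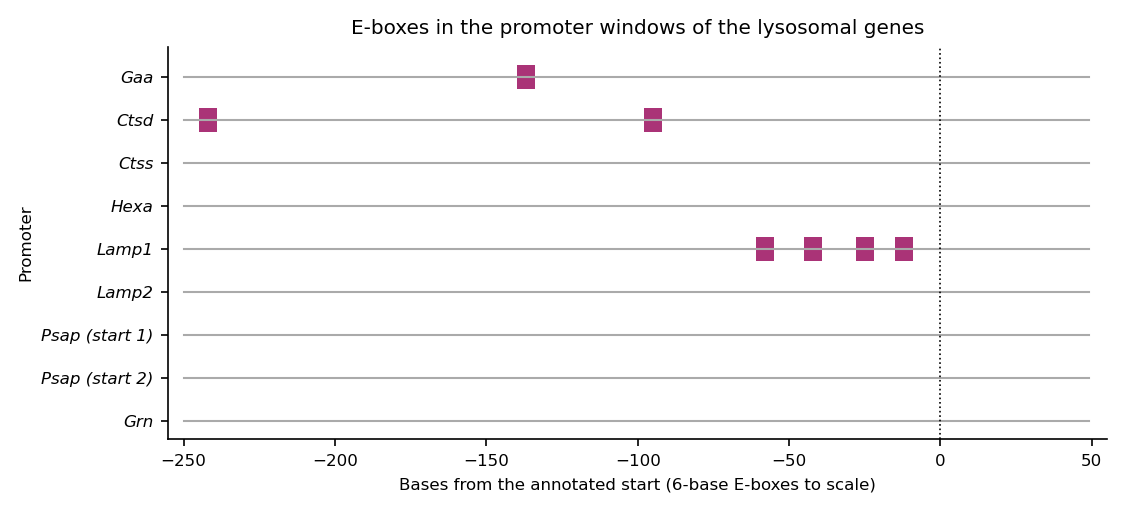
Positions of the E-box CACGTG in the promoter windows of 8 lysosomal genes. The horizontal axis gives bases from the annotated start (dotted line), each grey line is 1 window and each block is 1 E-box. Lamp1 holds 4 copies, Ctsd 2 and Gaa 1, and the other windows hold none.

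The libraries differed in ways that touch every value below. Total counts were 698930 to 954191 in WT against 2024372 to 2712754 in Emb knockdown, and the ribosomal RNA gene Rn18s-rs5 took 3.55% to 13% and 29.2% to 42.5% of them. Emb itself, in replicates 1 to 4, had 4, 6, 22 and 16 counts in WT against 5, 25, 3 and 5 in Emb knockdown. In CPM, the usual depth-normalised count, here with library sizes scaled by TMM factors, Emb was at 12.8 ± 8.22 and 5.33 ± 5.33 (SD, n = 4 each), and its log2 fold change of -1.24 ± 0.82 (SE) had an edgeR adjusted p of 0.529. Relative to the receptor genes described further on, Emb lay at 0.438 to 2.17 times their level in WT against 0.190 to 2.00 in Emb knockdown, below their 95th percentile in all 8 libraries. Over all 11353 genes tested, edgeR called 0 (0%) at an adjusted p under 0.05, with 0.0719 the lowest. At an unadjusted p under 0.05, 8.64% of them were higher and 4.64% lower in Emb knockdown, and 4.03% and 4.25% had groups that did not overlap, higher and lower respectively.

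Markers of other cells were abundant. The summed CPM of 8 enteric glia markers was 19110 to 54758 in WT against 20243 to 29174 in Emb knockdown, that of 16 neuron markers 447 to 728 and 378 to 652. Of the neuron markers, 9 lay in no library above the 95th percentile of the olfactory, vomeronasal and trace amine receptor genes, which neurons of the colon are not known to use broadly: Elavl2, Elavl4, Tubb3, Snap25, Stmn2, Phox2a, Ret, Nos1 and Tac1. The summed CPM of 20 macrophage and dendritic cell markers was 1849 to 4151 in WT against 4639 to 7848 in Emb knockdown, without overlap. Of those 20, 15 were tested, 12 had a positive and 3 a negative log2 fold change, and none was at 0 throughout a genotype. C1qa, a complement component of tissue macrophages, averaged 1485 CPM in WT against 3937 in Emb knockdown, while Cx3cr1, the fractalkine receptor, averaged 1151 against 277. Without C1qa, but with Cx3cr1 kept, the sums of this list overlapped between genotypes. C1qa was not the only marker with a higher mean in Emb knockdown. Mrc1 averaged 42.9 CPM in WT against 391, Cd74 45.3 against 314, Adgre1 61.1 against 269 and Fcgr3 2.98 against 209. Cd14, at 24.9 against 3.66, and Mertk, at 16.3 against 5.61, had the higher mean in WT, as Cx3cr1 did. Of the 20, Adgre1, C1qa, Aif1 and Cd74 were above the receptor percentile in all 8 libraries. Only Ptprc, the leukocyte antigen CD45, was above it in no library. The part of such cells in the lysosomal values was not tested. In a bulk sample, fewer cells of a type and less RNA per cell cannot be told apart.

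**Figure D2:**
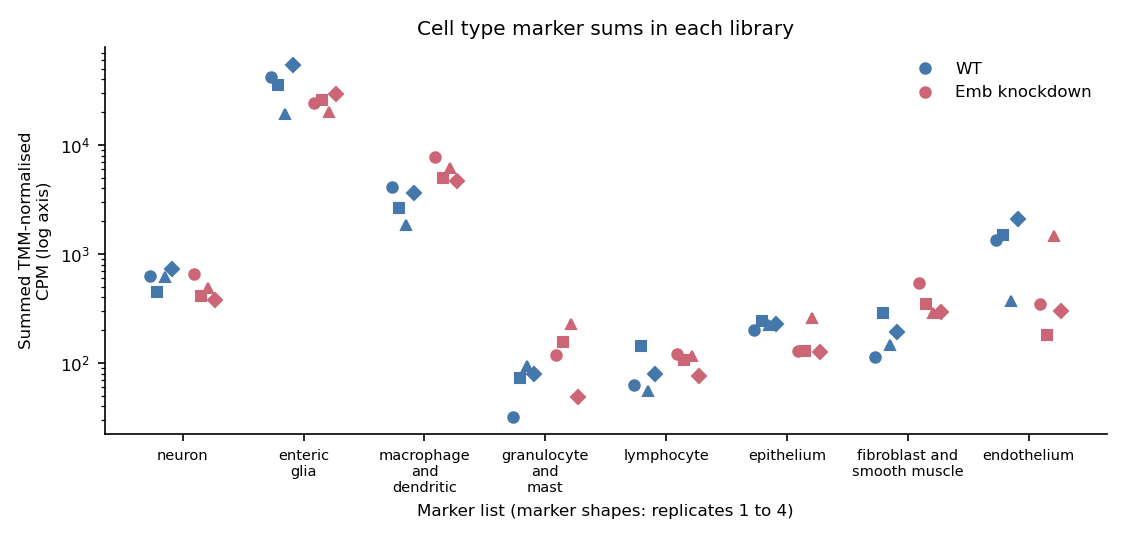
Summed TMM-normalised CPM (log axis) of 8 lists of cell type markers, 1 point per library, blue for WT and red for Emb knockdown, with marker shapes for replicates 1 to 4. The macrophage and dendritic points lie at 1849 to 4151 in WT against 4639 to 7848 in Emb knockdown, and those of fibroblast and smooth muscle also do not overlap, at 113 to 288.5 and 289.1 to 541. Without C1qa, but with Cx3cr1 kept, the macrophage and dendritic sums would overlap.

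Of the hydrolases, Gaa differed most clearly in position between genotypes. Gaa (ENSMUSG00000025579, GRCm38 chromosome 11, 119267887 to 119285454, plus strand) encodes the acid alpha-glucosidase that releases glucose from glycogen inside lysosomes, the enzyme lacking in Pompe disease. In replicates 1 to 4, Gaa had 3, 14, 7 and 5 counts in WT against 199, 329, 139 and 156 in Emb knockdown, or 3.86, 16.1, 5.33 and 7.03 CPM against 133, 174, 75.1 and 97.7. Every Emb knockdown library lay above every WT library, and Gaa was the single member of the 9 for which this held. The means were 8.08 ± 5.50 and 120 ± 43.3 CPM (SD, n = 4 each), and the log2 fold change was 3.88 ± 0.72 (SE). Leaving out any 1 library gave 3.64 to 4.53, and scaling by library totals alone gave 3.14. These values helped to choose Gaa, so no p is given and nothing is read from its place against the background share.

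Hexa and Gm2a did not share that order. Hexa (ENSMUSG00000025232, chromosome 9, 59539540 to 59565109, plus strand) encodes a subunit of the lysosomal enzyme that trims GM2 ganglioside. It had 3.86, 5.75, 9.89 and 4.22 CPM in WT against 27.98, 0.530, 33.5 and 2.51 in Emb knockdown. Emb knockdown replicates 1 and 3 were above every WT library and replicates 2 and 4, with 1 and 4 counts, below every one. Hexa was too low for the edgeR filter, and a fit without the filter gave a log2 fold change of 1.65. Tmem202, which shares 255 exonic bases on the opposite strand, had 0 to 16 counts, and reads from that stretch cannot be assigned without the strand. Gm2a, the activator that presents the ganglioside to the enzyme, had 0, 2.30, 23.6 and 7.03 CPM in WT against 195, 112, 102 and 0.627 in Emb knockdown. Its 3 high libraries were thus Emb knockdown replicates 1 to 3, the fourth lay within the WT range, and the log2 fold change was 3.57 ± 1.37 (edgeR adjusted p = 0.320).

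The cathepsins are proteases, Ctsb and Ctss of the cysteine class and Ctsd of the aspartic class. Ctsb (ENSMUSG00000021939, chromosome 14, 63122462 to 63145923, plus strand) had 193, 247, 135 and 105 CPM in WT against 199.9, 154, 293 and 391 in Emb knockdown. Emb knockdown replicates 3 and 4 lay above the WT libraries and the other 2 among them. Its log2 fold change of 0.61 ± 0.67 (SE) became -0.036 when libraries were scaled by their totals alone. A stretch of 774 exonic bases is shared with Fdft1 on the opposite strand, with the strand setting of the counting not given in the sources used here. Fdft1 had 893 counts in Emb knockdown replicate 2 and 1 to 25 in the other libraries, and its part in the Ctsb counts was not tested.

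Ctsd (ENSMUSG00000007891, chromosome 7, 142375911 to 142388038, minus strand) encodes the main aspartic protease of the lysosome. It had 16.7, 42.5, 6.85 and 25.3 CPM in WT against 98.6, 33.9, 21.6 and 6.27 in Emb knockdown. The groups overlapped over most of their range, with Emb knockdown replicate 1 alone above WT and replicate 4 below it. The log2 fold change of 0.81 ± 0.84 was -0.13 with Emb knockdown replicate 1 left out and 1.40 with WT replicate 2 left out. Exons of the predicted gene Gm49369 share 808 bases with Ctsd on the same strand, and that gene had 0 counts in every library.

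Ctss (ENSMUSG00000038642, chromosome 3, 95526786 to 95556403, plus strand) encodes a cathepsin found mainly in antigen-presenting cells, where it degrades the invariant chain Cd74. It had 1, 5, 5 and 4 counts in WT against 37, 8, 47 and 30 in Emb knockdown, which was 1.29, 5.75, 3.804 and 5.62 CPM against 24.7, 4.24, 25.4 and 18.8. Emb knockdown replicates 1, 3 and 4 lay above all WT libraries and replicate 2 within them. Ctss did not pass the low-count filter, and without it the log2 fold change was 2.36. The part of macrophage and dendritic cells in the Ctss value was not tested. Their marker sum separated the genotypes, but not with C1qa alone left out. Cst3, cystatin C, which inhibits cysteine cathepsins, varied from 0 to 246 CPM in WT against 6.89 to 1890 in Emb knockdown. Its log2 fold change of 3.05 ± 2.10 (edgeR adjusted p = 0.546) was 0.20 with Emb knockdown replicate 2 left out and 7.68 with WT replicate 4 left out.

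Psap and Grn encode precursors that are cut into smaller active proteins and bind each other on the way to the lysosome. Psap (ENSMUSG00000004207, chromosome 10, 60277627 to 60302597, plus strand) yields the saposins, cofactors of sphingolipid hydrolases. It had 11.6, 6.90, 16.0 and 2.81 CPM in WT against 37.3, 11.1, 33.0 and 18.8 in Emb knockdown. Of the Emb knockdown libraries, 3 were above every WT library and replicate 2 lay inside the WT range. The means were 9.32 ± 5.70 and 25.1 ± 12.2 CPM (SD, n = 4 each), with a log2 fold change of 1.39 ± 0.69 (SE) that ran from 1.13 to 1.85 with single libraries left out. The scaling moved the Psap estimate further, to 0.62 with library totals alone and 2.03 with scaling to the receptor genes.

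Grn (ENSMUSG00000034708, chromosome 11, 102430315 to 102437048, plus strand) encodes progranulin, a secreted growth factor and lysosomal protein. Its counts were 2, 12, 723 and 31 in WT against 1124, 2, 8 and 2 in Emb knockdown, or 2.57, 13.8, 550 and 43.6 CPM against 749, 1.06, 4.32 and 1.25. A single library of each genotype, WT replicate 3 and Emb knockdown replicate 1, held nearly all of the Grn counts. The antisense neighbour Fam171a2, sharing 68 exonic bases, had 1 to 27 counts. The medians were 28.7 and 2.79 CPM while the means were 152 ± 266 and 189 ± 373. The log2 fold change of 0.30 ± 1.92 therefore had no stable sign, being -6.10 with Emb knockdown replicate 1 left out and 3.34 with WT replicate 3 left out. Sort1, sortilin, a receptor that takes up progranulin for delivery to lysosomes, had 55.9 ± 60.1 and 93.7 ± 43.0 CPM, with all Emb knockdown libraries inside the WT range (edgeR log2 fold change 0.75 ± 0.82, adjusted p = 0.731).

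The membrane glycoproteins Lamp1 and Lamp2 lay in opposite directions. Lamp1 (ENSMUSG00000031447, chromosome 8, 13159161 to 13175338, plus strand) is a widely used marker of the lysosomal membrane. It had 12.9, 14.9, 19.0 and 12.7 CPM in WT against 12.7, 2.12, 0.540 and 8.77 in Emb knockdown. Emb knockdown replicates 2 to 4 lay below every WT library, and replicate 1 was level with the lowest of them. The log2 fold change of -1.31 ± 0.83 stayed negative with each library left out, from -1.96 to -0.93, and under every other setting tried. Lamp1 was the single member with a negative log2 fold change. Its exons share 249 bases with Grtp1 on the opposite strand, which had 5 to 31 counts per library.

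Lamp2 (ENSMUSG00000016534, chromosome X, 38401357 to 38456454, minus strand) encodes the membrane protein one form of which serves as receptor in chaperone-mediated autophagy, and its loss causes Danon disease. It had 42, 9, 5 and 12 counts in WT against 1306, 2965, 49 and 16 in Emb knockdown, or 54.0, 10.4, 3.804 and 16.9 CPM against 870, 1572, 26.5 and 10.02. Emb knockdown replicates 1 and 2 were far above all others, and replicates 3 and 4 lay within the WT range. The log2 fold change of 4.87 ± 1.56 was the highest of the members in this fit, though below that of Gaa with limma voom (3.44 against 3.95) and with the replicate number as a block (3.39 against 3.98). It was 3.90 with Emb knockdown replicate 2 left out and 6.00 with WT replicate 1 left out. Cd68, a macrophage-rich relative of the LAMP family, had 15.5 ± 13.9 CPM in WT against 15.6 ± 14.9 in Emb knockdown (edgeR log2 fold change 0.01 ± 0.97, adjusted p = 0.997), and the sign of that estimate was not stable: it was -0.58 with scaling by library totals and ran from -0.69 to 0.82 with single libraries left out.

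**Figure D3:**
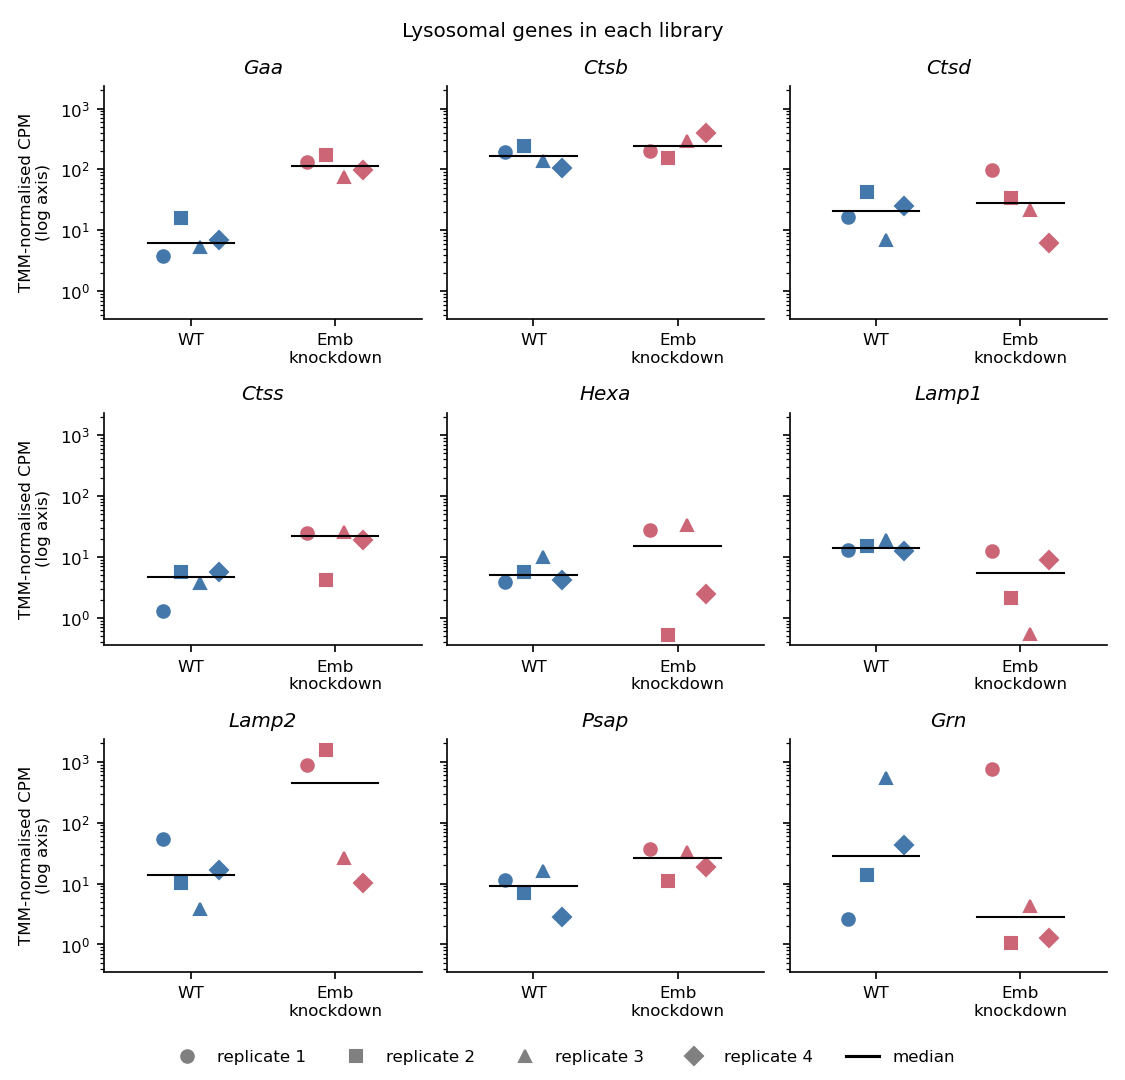
TMM-normalised CPM (log axis) of the 9 lysosomal genes, 1 point per library, blue for WT and red for Emb knockdown, with marker shapes for replicates 1 to 4 and a bar at each group's median. The groups do not overlap for Gaa (3.86 to 16.1 in WT, 75.1 to 174 in Emb knockdown) and overlap for the other 8; Lamp2 and Grn rest on 1 or 2 libraries of a group.

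Many of these values were small enough to be set against a background. Each gene's counts per kilobase of exon were taken relative to 1504 receptor genes summed in the same library, and a gene was set against the 95th percentile of single receptor genes, which was 2.703 to 3.41 times that sum's level. This measure was chosen after the data were seen. Ctsb was above the percentile in all 8 libraries, at 11.6 to 27.8 times the receptor level in WT against 26.5 to 61.1 in Emb knockdown. Gaa was above it in 0 of 4 WT libraries, at 0.474 to 2.29 times, and in 4 of 4 Emb knockdown libraries, at 12.7 to 38.0 times, so its WT counts were no higher than receptor genes reach. Ctss was likewise above it in 0 of 4 WT and 4 of 4 Emb knockdown libraries, at 0.557 to 2.88 and 3.26 to 21.5 times, but by narrow margins. In WT replicate 4 it was at 2.75 times against a percentile of 2.78. In Emb knockdown replicate 2 it was at 3.26 times, from 8 counts, against a percentile of 3.08. Psap was above the percentile in 1 WT and 4 Emb knockdown libraries, Ctsd in 3 and 3, Hexa in 1 and 2, Lamp2 in 1 and 2, Grn in 2 and 1 and Lamp1 in 3 and 1. By library, taking replicates 1 to 4 in turn, 3, 3, 5 and 4 of the 9 members exceeded it in WT against 9, 6, 6 and 4 in Emb knockdown. Of all protein-coding genes, 14.4% to 22.8% did so in WT and 26.0% to 31.4% in Emb knockdown, so this share was higher in Emb knockdown for genes at large too.

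**Figure D4:**
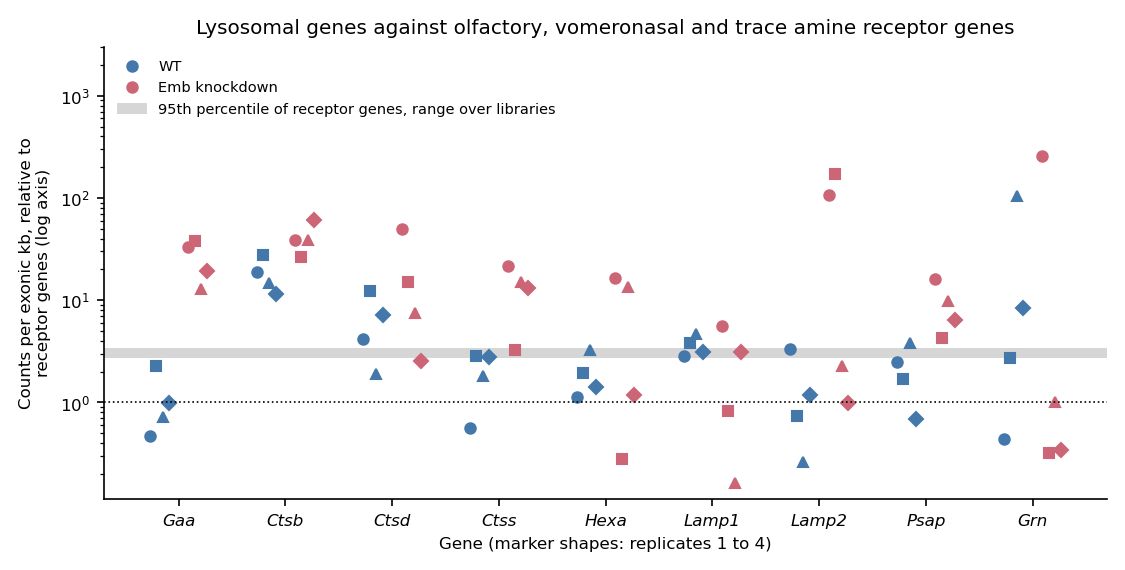
Counts per exonic kilobase of each lysosomal gene relative to the summed receptor genes of the same library (log axis; dotted line at 1), blue for WT and red for Emb knockdown. The grey band spans the 95th percentile of single receptor genes over the libraries, 2.703 to 3.41; every Ctsb point lies above it, and the Gaa points lie below it in WT and above it in Emb knockdown.

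The order of the members by level was compared on CPM per exonic kilobase, which allows for gene length. In WT the median was highest for Ctsb, at 27.1 (range 17.4 to 40.8), and then 8.94 for Ctsd, 8.26 for Grn, 5.20 for Lamp1, 3.47 for Ctss, 3.37 for Psap, 2.496 for Hexa, 1.42 for Lamp2 and 1.29 for Gaa. The ranges of neighbouring genes overlapped, those of Ctsb and Ctsd only at their ends (17.4 and 18.1), and that of Grn, 0.741 to 158, was the widest. In Emb knockdown the medians were 46.9 for Lamp2, 40.7 for Ctsb, 24.1 for Gaa, 16.0 for Ctss, 11.8 for Ctsd, 9.43 for Psap, 7.64 for Hexa, 2.04 for Lamp1 and 0.803 for Grn. Neighbouring genes overlapped there as well, and Lamp2 ran from 1.05 to 165. Gaa thus stood last of the 9 in WT and behind only Lamp2 and Ctsb in Emb knockdown. Dividing by the longest transcript in place of all exons moved the rank of 7 of the 9 over all libraries, and left Ctsb highest.

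The members differed in the library where each was highest, though Emb knockdown replicate 1 was high for most of them. The mean log2 CPM of the members was 6.60 there, against 3.73 to 4.71 in the other libraries. It was also the only library with no member under 10 counts. How closely the members followed each other was not tested. The summed CPM of the members was 299.8, 363, 750.1 and 223 in WT against 2153, 1953, 513 and 555 in Emb knockdown. The 3 highest sums rested on few genes: Lamp2 made up 40.4% of that in Emb knockdown replicate 1 and 80.5% in replicate 2, and Grn 73.3% in WT replicate 3. Ctsb made the largest part in the other 5 libraries. Emb knockdown replicate 1 was the highest library for Ctsd, Psap and Grn, replicate 2 for Gaa and Lamp2, replicate 3 for Ctss and Hexa and replicate 4 for Ctsb, while Lamp1 was highest in WT replicate 3. The SD of log2 CPM ranged from 0.25 (Lamp1) to 3.00 (Grn) in WT and from 0.52 (Gaa) to 3.91 (Grn) in Emb knockdown, against medians of 1.00 and 0.87 over all tested genes. Gaa, Ctsb and Psap were the members whose SD lay below the median in both genotypes.

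The wider lysosome was described through 194 other genes in 9 lists, drawn up from general knowledge of the organelle. Of these, 138 passed the low-count filter, 84 with a positive and 54 with a negative log2 fold change. Over all tested genes, 51.6% were positive, the share to hold beside the direction counts of the lists below. The median of the 138 was 0.25, beside 0.04 for all tested genes. None passed the adjusted p in edgeR. At an unadjusted p under 0.05, 14 (10.1%) were higher and 5 (3.62%) lower in Emb knockdown, near the 8.64% and 4.64% of all tested genes. The groups did not overlap for 5 genes in each direction (3.62% each), near the 4.03% and 4.25% over all genes. With libraries scaled by totals alone the median of the lists was -0.45 and that of all genes -0.67, and with scaling to the receptor genes they were 0.91 and 0.64. DESeq2's Wald test at its adjusted p under 0.05 called 12 of these 138 (8.7%), beside 749 of all 11353 genes (6.6%).

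Among 12 other proteases tested, 8 had a positive and 4 a negative log2 fold change, with a median of 0.67. Lgmn, the asparaginyl protease legumain that matures cathepsins, had 13.8 to 32.2 CPM in WT against 148 to 1385 in Emb knockdown, without overlap. Its log2 fold change was 4.67 ± 0.99 (edgeR adjusted p = 0.275), and 3.42 without Emb knockdown replicate 1. Ctsl, cathepsin L, had a log2 fold change of 3.36 ± 1.30 (edgeR adjusted p = 0.322), which was 1.69 without Emb knockdown replicate 1. Ctsh had a log2 fold change of -2.41 ± 1.51, which turned to 2.499 without WT replicate 2, a library with 326 CPM of it against 1.29 to 5.33 in the other WT libraries.

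Of 25 other hydrolases tested, 17 were positive and 8 negative, with a median of 0.21. Ppt1, the palmitoyl thioesterase mutated in infantile neuronal ceroid lipofuscinosis, had 25.3 to 39.1 CPM in WT against 386, 199, 756 and 20.7 in Emb knockdown. That order, 3 libraries above WT and replicate 4 below it, gave a log2 fold change of 3.48 ± 0.99 (edgeR adjusted p = 0.295). Fuca1, which removes fucose from glycoproteins, had a log2 fold change of 2.99 ± 1.00 (edgeR adjusted p = 0.304). Hgsnat and Siae, which act on heparan sulfate and sialic acid, had log2 fold changes of -0.80 ± 0.65 and -1.05 ± 1.02. All 4 tested activators and lumenal cofactors were positive, with a median of 1.49. Ifi30, a thiol reductase that opens disulfides for antigen processing, had 64.0 CPM in Emb knockdown replicate 1 and 18.0 to 19.5 in the other 3, against 3.45 to 22.5 in WT.

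Other membrane proteins were evenly split, 14 positive and 14 negative of 28, with a median of -0.02. Cd164, a sialomucin of lysosomes and the cell surface, had 1.15 to 18.3 CPM in WT against 45.1 to 695 in Emb knockdown, without overlap (edgeR log2 fold change 4.80 ± 1.16, adjusted p = 0.275). Laptm5, a membrane protein of blood-derived cells, had a log2 fold change of 2.32 ± 0.85 (edgeR adjusted p = 0.312). In the other direction, Slc15a4, a histidine and peptide transporter, had 50.6 to 86.2 CPM in WT against 18.6 to 35.3 in Emb knockdown (edgeR log2 fold change -1.25 ± 0.55, adjusted p = 0.359), again without overlap. Sidt2, which has been linked to nucleic acid uptake by lysosomes, had a log2 fold change of -1.47 ± 0.63 (edgeR adjusted p = 0.351).

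The vacuolar ATPase, the proton pump that acidifies lysosomes, had 10 positive and 9 negative subunit genes of 19, with a median of 0.02. Atp6v1g1 had 0, 0, 6.85 and 0 CPM in WT against 112, 26.5, 9.19 and 12.5 in Emb knockdown, and Atp6v0d2, a subunit prominent in osteoclasts and macrophages, had 14.5 to 19.3 and 0.627 to 11.1. Neither pair of groups overlapped, in opposite directions, with log2 fold changes of 4.24 ± 1.28 (edgeR adjusted p = 0.295) and -1.89 ± 0.83 (adjusted p = 0.360). The estimate for Atp6v1g1 was 8.76 without WT replicate 3, the single WT library with counts of it, and that for Atp6v0d2 was -2.91 without Emb knockdown replicate 2. Atp6v0b and Atp6v1h, the other 2 named subunits, had log2 fold changes of 2.34 ± 0.92 and -1.75 ± 0.74.

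Sorting genes were positive in 14 and negative in 8 of 22, with a median of 0.39. Gga2, an adaptor that loads mannose 6-phosphate receptors into vesicles, had 29.9 to 63.2 CPM in WT against 6.89 to 23.3 in Emb knockdown, without overlap (edgeR log2 fold change -1.72 ± 0.60, adjusted p = 0.311). Vps29 of retromer, which returns those receptors from endosomes, had a log2 fold change of 2.56 ± 0.98, and 1.30 without Emb knockdown replicate 4. The fusion complex subunits Vps41 and Vps39 had log2 fold changes of 1.93 ± 0.90 and -1.92 ± 0.98.

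Genes of lysosomal control and nutrient sensing were positive in 9 and negative in 8 of 17, with a median of 0.19. Tfeb had 3.86 to 33.7 CPM in WT, 10.6 to 15.1 in Emb knockdown replicates 1 to 3 and 355 in replicate 4. Its log2 fold change of 2.45 ± 1.23 (edgeR adjusted p = 0.410) was -0.51 without that library. Any link between Tfeb and the genes with an E-box was not tested. Lamtor2, a subunit of the Ragulator scaffold, had a log2 fold change of 4.74 ± 1.42 (edgeR adjusted p = 0.295), and 2.30 without Emb knockdown replicate 1. Mtor, the kinase that Ragulator brings to the lysosome, had 45.0 to 72.4 CPM in WT against 16.7 to 39.99 in Emb knockdown (edgeR log2 fold change -0.91 ± 0.54, adjusted p = 0.487), without overlap.

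Glycogen genes were listed beside Gaa because it degrades glycogen in the lysosome. Of 9 tested, 6 were positive and 3 negative, with a median of 0.62. Pgm2, which interconverts sugar phosphates, had 4.56 to 6.90 CPM in WT against 11.9 to 45.6 in Emb knockdown, without overlap (edgeR log2 fold change 2.19 ± 0.64, adjusted p = 0.295). Phkg1, a catalytic subunit of phosphorylase kinase, had a log2 fold change of 1.05 ± 0.63. Both tested cathepsin inhibitors, Cst3 and Cstb, were positive, and Cstb had a log2 fold change of 1.39 ± 1.33 (edgeR adjusted p = 0.682), which was 0.37 with Emb knockdown replicate 1 left out and 3.44 with WT replicate 1 left out.

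**Figure D5:**
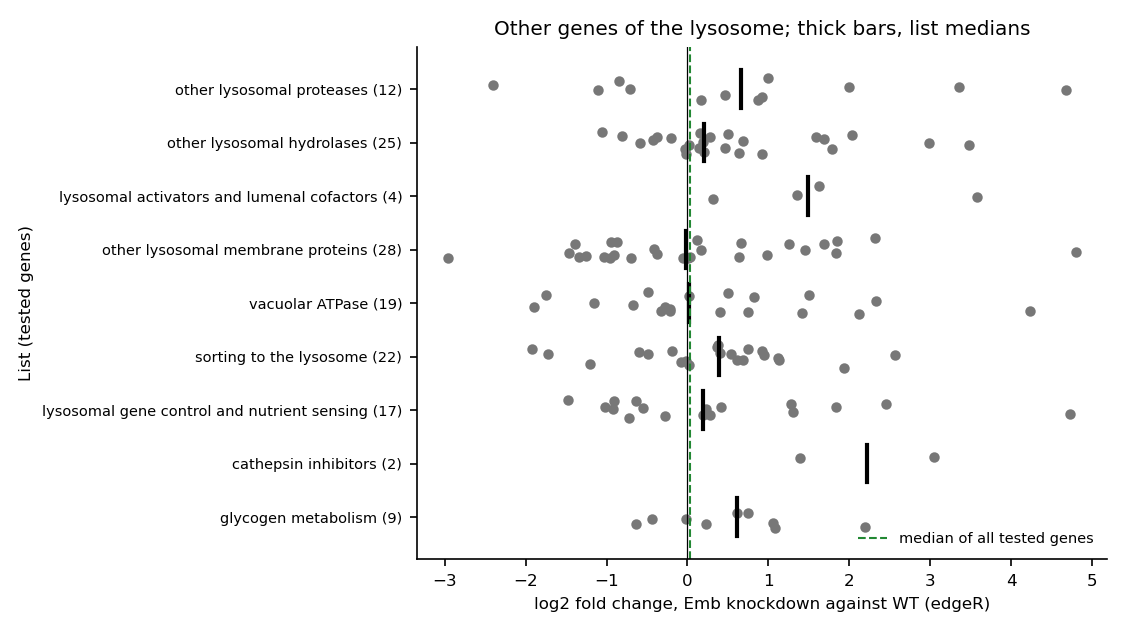
Log2 fold changes (edgeR, Emb knockdown against WT) of the 138 tested genes of the wider lysosomal lists, 1 point per gene in rows by list, with the number tested in parentheses. Thick bars are list medians, from -0.02 for other membrane proteins to 2.22 for the 2 cathepsin inhibitors, and the dashed line is the median of all tested genes, 0.04.

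The genes most like the members in pattern were found by Pearson correlation of log2 CPM with the mean log2 CPM of the 9 members over the 8 libraries, among 1941 candidates. That mean was 3.73 to 4.32 in WT, 6.60 in Emb knockdown replicate 1 and 4.14 to 4.71 in the other Emb knockdown libraries. The closest genes were Ralgapa1 (r = 0.970), Ccn1 (0.958), Eif3a (0.956), Lpar1 (0.949) and Ahnak (0.945). They encode a GTPase-activating subunit, a matricellular protein, a translation initiation factor subunit, a lysophosphatidic acid receptor and a large scaffold protein, and none is a lysosomal enzyme. Without Emb knockdown replicate 1 the coefficients were 0.796, 0.919, 0.866, 0.458 and 0.776. The points share library depth and genotype, so these are descriptions of 8 libraries.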

How the data were processed

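The authors deposited 1 table of raw counts (whole numbers) of 55414 genes in 8 libraries. A Smart-seq kit was used, per the labels' protocols, with cutadapt and the build mm10, per the submitters' processing notes, and with an aligner, counting tool and strand setting not given in the sources used here. Both the 9 genes and all gene lists were chosen with earlier results of these data known.

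Counts were fitted with edgeR 4.0.16 (R 4.3.3): filterByExpr (minimum count 10, minimum total 15), TMM scaling, robust quasi-likelihood with genotype as the only term, and Benjamini-Hochberg adjustment over all tested genes with a threshold of 0.05. In that filter, 7 of the 9 members passed. CPM used TMM-scaled library sizes, and log2 CPM a prior count of 2. The fitting code was run on simulated counts with known fold changes, as a check of the code only. Reads amplified by PCR and lacking molecular identifiers do not count independent molecules. Exon lengths and coordinates came from GENCODE M21 (GRCm38), promoter sequences from RefSeq (GRCm38.p6).

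Genes named are the 9 members, Emb, genes that act with or beside the members (among them Gm2a, Sort1, Cst3, Tfeb and Cd68), up to 2 per wider list and direction by smallest unadjusted p, and the 5 most alike in pattern; some genes chosen by this rule are not reported here. Alternatives were other scalings, no filter, DESeq2 1.42.0, limma 3.58.1 voom, a replicate block and leaving out each library.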

Additional observations from a re-analysis of the deposited data

Results flagged for a closer look

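The highest or lowest library of a gene stood far from the other 3 of its genotype on the log2 scale (Dixon's criterion) in 6 of 92 gene and genotype groups examined. The nominal 1 in 20 of this criterion assumes independent, normally distributed values. These groups share the same libraries and some hold libraries without counts, so that rate cannot say how many chance would give. Among the members 1 of 18 groups was flagged: Grn in Emb knockdown replicate 1, at 749 CPM against 1.06 to 4.32 in the other 3. Of the partners, Gm2a was at 0.627 CPM in Emb knockdown replicate 4 against 102 to 195, and Tfeb at 355 CPM in the same library against 10.6 to 15.1. Ifi30 was at 64.0 CPM in Emb knockdown replicate 1 against 18.0 to 19.5. In WT, Atp6v1g1 was at 6.85 CPM in replicate 3 and had no counts in the others, and Fnip2, a partner of the nutrient sensor folliculin, was at 4.22 CPM in replicate 4 against 46.3 to 72.3. What set these libraries apart was not tested.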

How the results depend on the processing

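The 7 members that passed the filter, so not Ctss and Hexa, gave 112 log2 fold changes under alternatives. Of these, 103 kept their direction and moved by less than the gene's own SD between replicates, 3 moved by more and 6 changed sign. With a wide SD, large moves counted as kept. Grn went from 0.30 to 3.34 without WT replicate 3, and Ctsd from 0.81 to 0.001 with library totals alone. The sign changes were Ctsb with library totals alone (-0.036), Ctsd without Emb knockdown replicate 1 (-0.13; range with single libraries left out -0.13 to 1.40), and Grn with library totals (-1.06), limma voom (-2.13), the replicate block (-3.85) and without Emb knockdown replicate 1 (-6.10, against 3.34 without WT replicate 3). The cause was not tested. Against 0 genes called by edgeR, library totals alone called 2, no low-count filter 910 of 48530 (1.88%) and DESeq2 749 of 11353 (6.6%). Of the wider lysosomal lists these called 0, 10 of 194 (5.15%) and 12 of 138 (8.7%). The median log2 fold change of those lists was -0.45 with library totals alone. Every fit with 1 library left out called 0 genes, as did voom.

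The labels do not say whether the replicate numbers pair the libraries. Same-numbered libraries deviated from their genotype means with correlations of 0.011 to 0.034, and 2 of 4 WT libraries matched their own number best. With so few libraries and such low counts, these values cannot settle whether the numbers pair them. The fit with the replicate block called 0 genes, with 918 at an unadjusted p under 0.05 against 1508 without it.

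WT libraries were the shallower ones (698930 to 954191 counts), and 4 or 5 of the 9 members had under 10 counts in each of them, so WT levels of Gaa, Ctss, Hexa and Psap are known only roughly.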
